A study of Homo sapiens with 26 samples.

Results

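IRF4, PRDM1, XBP1 and BHLHA15 are transcription factors of plasma cell differentiation, and their expression was described here across 26 human B-cell cancer cell lines. They are 4 of the 19775 gene symbols that have a probe-set of their own on the array. All probe-sets annotated to one of the 4 genes alone were taken, which gave 9 of the 54613 that were not controls. There were 3 for IRF4, 3 for PRDM1, 2 for XBP1 and 1 for BHLHA15.

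The lines comprised 14 grouped as diffuse large B-cell lymphoma (DLBCL) and 12 grouped as multiple myeloma (MM), each cultured without drug and hybridised to 1 Affymetrix HG-U133 Plus 2.0 array. Of these, 13 and 11 carry the disease label itself, while the undifferentiated lymphoma MC-116 was grouped with DLBCL and the plasmacytoma AMO-1 with MM, as the study's methods treat them. The labels also give AUC0, the area between the dose response curve and 0 over the doses where the curve is positive, for cyclophosphamide (C, tested as mafosfamide), doxorubicin (H) and vincristine (O), and a higher AUC0 means a more resistant line. No genotype, genetic modification or lymphoma subtype is given in the labels used here, and KMS-12-PE is a sister line of KMS-12-BM and so not independent of it. Because each line has a single array, every error below is the spread between lines and not the error of one line.

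A B cell becomes a plasma cell by switching off the programme of B-cell identity, held in place by PAX5 and BCL6, and building a large secretory apparatus. IRF4 is needed for this step and induces PRDM1. PRDM1 (also called BLIMP1) represses the B-cell genes, XBP1 is the transcription factor of the unfolded protein response that expands the endoplasmic reticulum after its messenger RNA has been spliced by the sensor IRE1 (gene ERN1), and BHLHA15 (also called MIST1) is a basic helix-loop-helix factor of professional secretory cells. IRF4 is also a gene on which myeloma cells depend, and it is expressed in the activated B-cell type of DLBCL.

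In RefSeq on build GRCh38.p14, IRF4 lies at chr6:391752-411443, PRDM1 at chr6:105992690-106109938, BHLHA15 at chr7:98211439-98215457 and XBP1 at chr22:28794560-28800569. The bases before a start site are shown for the genes where a motif of this pathway was found, and for BHLHA15 because its levels separated the diseases. Capitals mark the matched motifs, the sequences read 5′ to 3′ on the gene's strand, and each window covers the 250 bases before a RefSeq start site.

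XBP1, chr22:28800570-28800819, minus strand: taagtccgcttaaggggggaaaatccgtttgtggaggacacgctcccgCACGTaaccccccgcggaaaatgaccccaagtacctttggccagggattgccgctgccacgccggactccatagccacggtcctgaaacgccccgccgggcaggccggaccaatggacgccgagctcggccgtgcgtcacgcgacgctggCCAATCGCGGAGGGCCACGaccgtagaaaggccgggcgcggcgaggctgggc
PRDM1, chr6:106086086-106086335, plus strand: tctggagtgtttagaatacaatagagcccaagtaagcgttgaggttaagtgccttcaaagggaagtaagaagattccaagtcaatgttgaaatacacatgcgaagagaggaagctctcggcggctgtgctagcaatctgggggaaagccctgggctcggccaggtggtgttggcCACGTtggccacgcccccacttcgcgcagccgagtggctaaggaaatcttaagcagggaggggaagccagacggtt
BHLHA15, chr7:98211189-98211438, plus strand: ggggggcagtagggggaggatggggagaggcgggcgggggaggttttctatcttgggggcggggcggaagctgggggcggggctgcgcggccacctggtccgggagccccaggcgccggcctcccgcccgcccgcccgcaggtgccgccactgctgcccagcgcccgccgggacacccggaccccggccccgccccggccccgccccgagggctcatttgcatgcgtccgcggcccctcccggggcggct

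Of 6 motifs searched on both strands, the ER stress response element stood 52 to 34 bases before the XBP1 start. It was found in 26 of 35097 such windows, or 0.0741%. The XBP1 core ACGTG, or its reverse complement as printed above, was in the XBP1 and PRDM1 windows and in 18.5% of all windows. The window of a second PRDM1 start, chr6:106098691-106098940, held the AP-1 motif TGANTCA, which 6.57% of windows hold. The MIST1 E-box CAGCTG (14% of windows), the interferon-type composite element (3.02%) and the PRDM1 core AGNGAAAG (6.57%) were in none of the windows of these genes, and the windows of IRF4, of BHLHA15 and of a second XBP1 start held none of the 6. These are letter matches in the reference sequence and were not measured in the lines.

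Expression is given below as the authors' log2 values after RMA, on which 1 unit is a doubling of signal. Probes differ in brightness, so values compare lines for a probe-set and not genes with one another. The array medians lay between 5.65 and 5.71. Where a gene had several probe-sets the leading one is the probe-set that varied most among the DLBCL lines, and the others are called the second and the third in the order of their identifiers.

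All 4 transcription factors were higher in the MM lines by their leading probe-sets. The differences were 2.61 log2 units for IRF4, 4.81 for PRDM1, 2.59 for XBP1 and 3.38 for BHLHA15, each the value of its own probe-set and not ranked between genes. Of the 9 probe-sets 8 passed the test, each of them higher in MM, where 5.64% of all probe-sets tested were called higher, 5.87% lower and 11.5% in either direction (limma, adjusted p under 0.05). In bulk RNA, fewer expressing cells and less RNA per cell cannot be told apart.

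**Figure D1:**
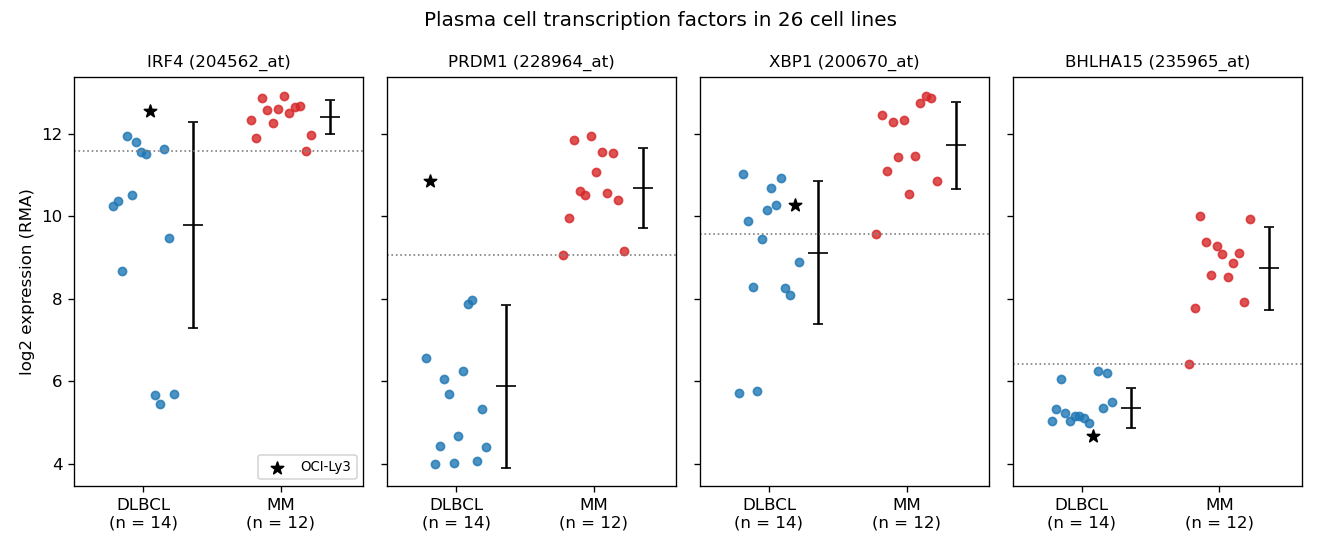
Log2 expression (RMA) of the leading probe-set of each gene, 1 point per cell line, in 14 DLBCL lines (blue, OCI-Ly3 as a black star) and 12 MM lines (red); bars are the mean and SD and the dotted line is the lowest MM line. OCI-Ly3 lies among the MM lines for IRF4 and PRDM1 and is the lowest line for BHLHA15, for which no DLBCL line reaches the MM range.

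The leading IRF4 probe-set ran in DLBCL from 5.44 in DB through a median of 10.44 to 12.54 in OCI-Ly3, and in MM from 11.58 in RPMI-8226 through 12.54 to 12.90 in OPM-2. The groups overlapped, and by this probe-set, chosen for its spread in DLBCL, the spread was far wider in DLBCL than in MM. The means were 9.79 ± 2.49 (SD, n = 14) and 12.40 ± 0.41 (SD, n = 12), a difference of 2.61 (SE 0.70, limma adjusted p = 0.0152). At the low end of DLBCL, DB, SU-DHL-4 and SU-DHL-5 read 5.44, 5.66 and 5.69, while the next line, NU-DHL-1, read 8.67. These 3 values lie near the array medians. The second IRF4 probe-set rose by 2.08 (SE 0.40, limma adjusted p = 0.00106) and tracked the first one across lines, with Pearson's r of 0.94 in DLBCL and 0.87 in MM as a description. Its SDs were 1.30 in DLBCL and 0.69 in MM. The third was dim on every array, at 2.88 to 3.47 in DLBCL. Its difference of 0.35 (SE 0.08, limma adjusted p = 0.00625) was small although it passed, and its SD was larger in MM (0.25) than in DLBCL (0.17).

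The leading PRDM1 probe-set ran in DLBCL from 4.01 in SU-DHL-4 through a median of 5.51 to 10.86 in OCI-Ly3. In MM it ran from 9.05 in KMS-12-PE through 10.59 to 11.95 in NCI-H929. OCI-Ly3 alone overlapped with the MM lines, and the next DLBCL line, U2932, read 7.98. The means were 5.88 ± 1.96 (SD, n = 14) and 10.68 ± 0.96 (SD, n = 12), a difference of 4.81 (SE 0.60, limma adjusted p = 6.6e-06), and leaving out OCI-Ly3 raised it to 5.19. The second probe-set gave 7.13 ± 0.88 and 9.26 ± 0.87, a difference of 2.13 (SE 0.33, limma adjusted p = 0.000115), and again OCI-Ly3, at 10.06, was the only DLBCL line in the MM range. For the third probe-set the groups did not overlap, the highest DLBCL line being OCI-Ly3 at 8.417 and the lowest MM line KMS-12-PE at 8.420. That gap is too small to separate these 2 lines, and the difference of the means was 1.21 (SE 0.15, limma adjusted p = 7.4e-06).

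The leading XBP1 probe-set ran in DLBCL from 5.73 in SU-DHL-4 through a median of 9.67 to 11.02 in NU-DUL-1, and in MM from 9.58 in AMO-1 through 11.88 to 12.92 in NCI-H929. The groups overlapped, with SU-DHL-4 and FARAGE (5.76) well below all other lines. The means were 9.12 ± 1.73 (SD, n = 14) and 11.71 ± 1.05 (SD, n = 12), a difference of 2.59 (SE 0.56, limma adjusted p = 0.00261). The second probe-set stayed close to the array medians in every line. It gave 5.69 ± 0.21 and 5.75 ± 0.15, and its difference of 0.06 (SE 0.07) was the one that missed the threshold (limma adjusted p = 0.661). An array of this kind reports the amount of XBP1 messenger RNA and does not separate its spliced from its unspliced form.

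BHLHA15 is covered by 1 probe-set. It ran in DLBCL from 4.67 in OCI-Ly3 through a median of 5.20 to 6.25 in NU-DUL-1. In MM it ran from 6.43 in U-266 through 8.98 to 10.02 in NCI-H929. The groups did not overlap, though U-266 lay closer to NU-DUL-1 than to the next MM line, KMM-1 at 7.77. The share of all probe-sets whose DLBCL and MM lines do not overlap was not computed, here or for the third PRDM1 probe-set. The means were 5.36 ± 0.48 (SD, n = 14) and 8.74 ± 1.0 (SD, n = 12), a difference of 3.38 (SE 0.29, limma adjusted p = 2.1e-08). In DLBCL the probe-set stood between the 32.1 and 59.0 percentiles of its array, and RMA values carry no detection call.

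**Figure D2:**
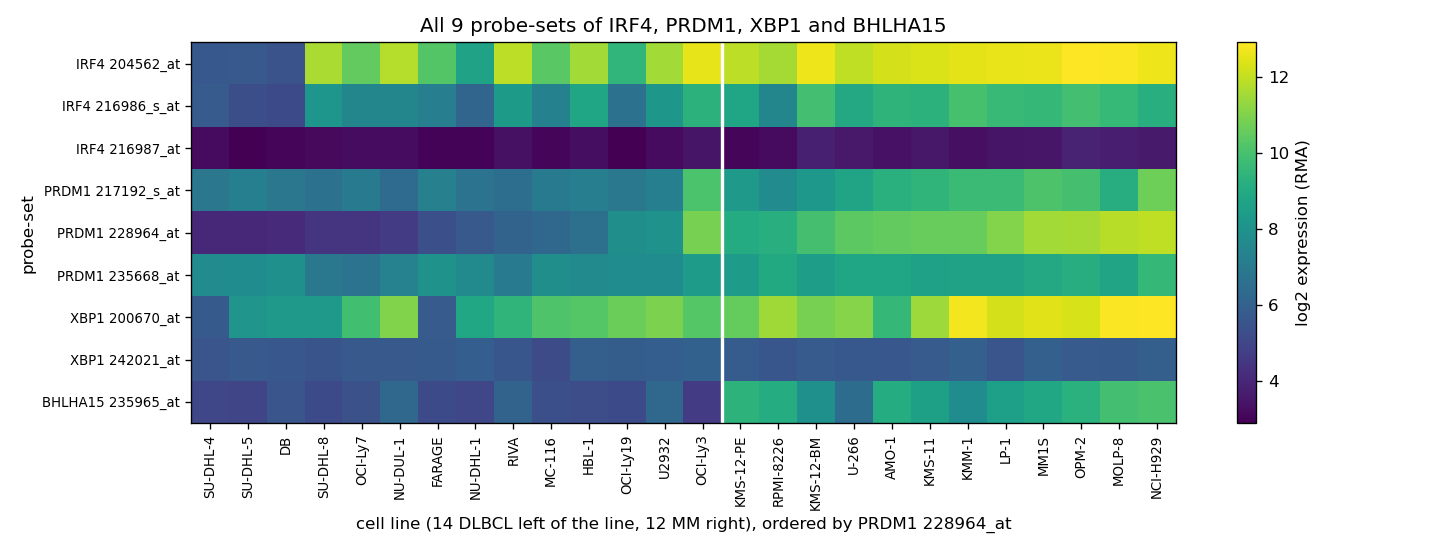
Log2 expression (RMA, colour) of all 9 probe-sets (vertical axis, labelled with their identifiers) in each cell line (horizontal axis), with 14 DLBCL lines left of the white line and 12 MM lines right of it, each ordered by the leading PRDM1 probe-set. The third IRF4 and the second XBP1 probe-set vary little over the lines.

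The question of which DLBCL lines carried a plasma cell-like set of factors was approached line by line, by asking which reached the lowest MM line. By the leading probe-sets, for IRF4 4 of 14 did (OCI-Ly3, RIVA, NU-DUL-1 and SU-DHL-8), for PRDM1 1 (OCI-Ly3), for XBP1 7 (NU-DUL-1, U2932, OCI-Ly19, HBL-1, OCI-Ly3, MC-116 and OCI-Ly7) and for BHLHA15 0. The lines depended on the probe-set. The second one of IRF4 gave 6, adding HBL-1, U2932 and OCI-Ly7 and leaving out NU-DUL-1, at 7.496 just under the bound of 7.498. The sum of 12 over the leading probe-sets depended on the MM lines that set the bound. It was 8 without AMO-1, the lowest for XBP1, and 6 with the second lowest MM line as the bound. With arrays centred on their medians the sum was 13. OCI-Ly3 reached the range in 3 of the 4 genes and in 7 of the 9 probe-sets. No other DLBCL line did so in more than 2 genes and 4 probe-sets. The 9 include the dim IRF4 probe-set, for which 9 of 14 DLBCL lines reached the range. They also include the XBP1 probe-set that did not differ between the diseases, for which 12 of 14 did. OCI-Ly3 was among these lines for each, so these probe-sets set it little apart. The lead of OCI-Ly3 in genes depended on AMO-1, without which OCI-Ly3 and NU-DUL-1 each reached the range in 2 of the 4 genes. With the second lowest MM line as the bound OCI-Ly3 reached it in 2 and NU-DUL-1 in 1.

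OCI-Ly3 joined high IRF4 and PRDM1 to PAX5, BCL6 and MS4A1 values above those of every MM line, which nearly all DLBCL lines shared. Its IRF4 of 12.54 and PRDM1 of 10.86 were the highest of the 14 DLBCL lines, its XBP1 of 10.26 was the 5th and its BHLHA15 of 4.67 was the lowest. PAX5, the factor that maintains B-cell identity, read 11.46 in OCI-Ly3, within the DLBCL range of 10.17 to 11.56 and above the highest MM value of 7.15. BCL6, the repressor of the germinal centre, read 11.22, and MS4A1, which encodes the surface antigen CD20, read 11.38, where no MM line exceeded 6.41 and 4.33. Every DLBCL line lay above the MM lines for PAX5 and for MS4A1, of which the lowest DLBCL value was 7.19. For BCL6 only SU-DHL-8, at 5.74, did not. The wider list of B-cell identity genes, which leaves out MS4A1, was mixed. Of 10 measured, 5 were at or below the highest MM value in OCI-Ly3, where 3 to 5 were in the other DLBCL lines.

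The plasma cell marker genes were mixed in the same line. Of 10 measured, 7 reached the lowest MM line in OCI-Ly3, where 5 to 9 did so in the other DLBCL lines. Only 1 reached the MM median in OCI-Ly3, the fewest of the DLBCL lines, where 2 to 4 did so in the others. These counts include CD27 and FCRL5, which were lower in MM than in DLBCL (-2.84 and -1.79), so reaching MM there is no plasma cell trait. The 1 gene was CD27 or FCRL5, since SDC1, CD38, TNFRSF17, JCHAIN, SLAMF7, ELL2, PIM2 and MZB1 lay below their MM medians in OCI-Ly3. Both CD27 and FCRL5 were among the 7. SDC1, the gene of the plasma cell surface antigen CD138, read 5.47 in OCI-Ly3 against a lowest MM value of 6.26, TNFRSF17, the gene of the receptor BCMA, 6.65 against 9.70, and ELL2, an elongation factor for secretory immunoglobulin messenger RNA, 8.10 against 8.29. JCHAIN, which joins polymeric immunoglobulin, and MZB1, a chaperone of antibody assembly, were at their lowest DLBCL values, 4.30 and 6.65, but the lowest MM lines read less, 4.203 and 5.92. SLAMF7, a surface receptor, and PIM2, a kinase, stood high among the DLBCL lines, at 9.85 and 11.26, where the lowest MM values were 4.44 and 9.34. CD38, a surface enzyme high on plasma cells, read 8.45, and its MM range of 5.58 to 11.78 covered the DLBCL values. BATF, a binding partner of IRF4, and IRF8, its relative, had their highest DLBCL values in this line, at 11.70 and 12.70, and BATF and PIM2 were chosen after the values were seen.

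Other DLBCL lines held other parts of the set. U2932 was second in PRDM1 (7.98), XBP1 (10.93) and BHLHA15 (6.21), had the highest TNFRSF17 of the DLBCL lines at 13.14, above the MM median of 12.99, and read 13.06 for JCHAIN. Its SDC1 of 5.87 lay below the lowest MM value. It kept PAX5 at 10.73 and MS4A1 at 11.83. HBL-1 had the highest DLBCL values of SLAMF7 (11.01), ELL2 (9.41) and PIM2 (11.63), and 10 of 28 genes of the XBP1 and secretory list reached the MM median in it, the most of any DLBCL line, with U2932 next at 9. Its factors read 11.55 for IRF4, 6.57 for PRDM1, 10.27 for XBP1 and 5.24 for BHLHA15. NU-DUL-1 led in XBP1 (11.02), BHLHA15 (6.25) and JCHAIN (13.70), with PRDM1 at 4.68. Its BCL6 of 6.84 was the second lowest of the DLBCL lines. At the other end, SU-DHL-4 was in the lowest 3 of 14 for each of the 4 factors yet read 12.67 for JCHAIN.

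In MM the leading probe-set of IRF4 was high in every line, from 11.58 to 12.90, and those of the other genes varied more. The second IRF4 probe-set also varied, from 7.50 in RPMI-8226 to 9.98 in KMM-1. NCI-H929 was the highest line for PRDM1, XBP1 and BHLHA15, and MOLP-8 was second for all 4 genes. The lowest lines differed by gene, RPMI-8226 for IRF4, KMS-12-PE for PRDM1, AMO-1 for XBP1 and U-266 for BHLHA15. KMS-12-BM and its sister KMS-12-PE read 12.67 and 11.90 for IRF4, 9.96 and 9.05 for PRDM1, 10.85 and 10.55 for XBP1, and 7.93 and 9.37 for BHLHA15. KMS-12-BM departed from the other MM lines in the genes around the factors, with the lowest SDC1 (6.26) and JCHAIN (4.203, where KMS-12-PE read 13.52) and the highest PAX5 (7.15).

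**Figure D3:**
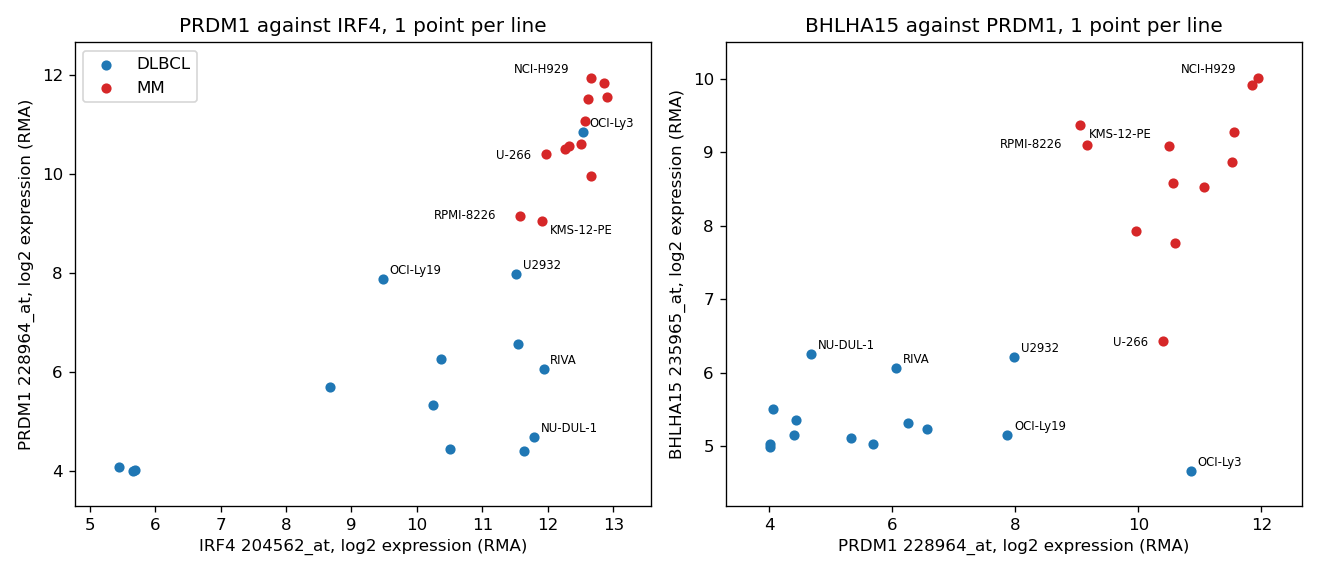
Log2 expression (RMA) of PRDM1 against IRF4 (left) and of BHLHA15 against PRDM1 (right), 1 point per cell line, 14 DLBCL (blue) and 12 MM (red), with some lines named. OCI-Ly3 sits among the MM lines on the left and below all lines on the right, with BHLHA15 at 4.67.

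Within each disease, IRF4, PRDM1 and XBP1 gave higher correlations with one another than with BHLHA15, which in DLBCL rested on OCI-Ly3. Pearson's r over lines is a description here, since the points share the normalisation and the genes were named together for their roles. IRF4 and PRDM1 gave r of 0.56 in the 14 DLBCL and 0.82 in the 12 MM lines, PRDM1 and XBP1 0.53 and 0.68, and IRF4 and XBP1 0.58 and 0.56. With BHLHA15 the values were 0.31 and 0.26 for IRF4, -0.13 and 0.30 for PRDM1, and 0.42 and 0.24 for XBP1. Without OCI-Ly3 the DLBCL values with BHLHA15 were 0.51, 0.285 and 0.56 in the same order, against 0.51 to 0.58 among the other 3 genes. The value of PRDM1 and XBP1 in MM moved to 0.84 without AMO-1.

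The genes whose pattern was most like each factor were sought among 22459 probe-sets over the 26 lines, with each disease centred on its own mean. For IRF4 they were RDX (r = 0.82), CCDC50 (0.75), ARID3A (0.75), RAPGEF1 (0.75) and RC3H1 (0.75). For PRDM1 they were SHISA3 (0.73), RC3H1 (0.72), ECHDC2 (0.71), EPB41L4B (0.70) and F5 (0.70). The diseases were centred but not scaled, so the one with the wider spread weighs more in these values. For IRF4 that was DLBCL (SD 2.49 against 0.41 in MM). RAPGEF1 gave 0.95 in DLBCL against -0.39 in MM, and CCDC50 0.79 against -0.08. For PRDM1, F5 gave 0.77 in DLBCL against -0.34 in MM. For XBP1 the nearest were AFF1 (0.72), ZNRF3 (0.72), LOC105379362 (0.67), TRAM2 (0.66) and GAB1 (0.66), and TRAM2, a component of protein translocation into the endoplasmic reticulum, gave 0.66 in DLBCL and 0.69 in MM. For BHLHA15 they were LCORL (0.74), SH3YL1 (0.72), PLAG1 (0.69), MTHFD2L (0.69) and MZB1 (0.69), the last with 0.41 in DLBCL and 0.77 in MM.

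The genes that surround the factors were counted over lists of 91 genes, of which 86 had a usable probe-set, and 39 passed in the same limma fit. Of 10 B-cell identity genes 7 were lower in MM and 0 higher, with a median difference of -2.20 against -0.02 over all probe-sets. PAX5 fell by 6.58 (SE 0.27, limma adjusted p = 4.1e-15), BCL6 by 6.22 (SE 0.70, limma adjusted p = 1.7e-06), IRF8, a factor of germinal centre B cells, by 4.17, and ETS1, which restrains plasma cell differentiation, by 2.79.

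Of 10 plasma cell marker genes 5 were higher in MM and 2 lower, with a median difference of 2.81. SDC1 rose by 4.47, ELL2 by 4.37, TNFRSF17 by 3.70 and SLAMF7 by 3.37. The lower genes, named after their values were seen, were CD27, a receptor of memory and plasma cells, at -2.84 (limma adjusted p = 0.0253), and FCRL5, an immunoglobulin receptor, at -1.79 (limma adjusted p = 0.0496). JCHAIN gave 3.42 (SE 1.17, limma adjusted p = 0.0582) and CD38 -0.16 (SE 0.69, limma adjusted p = 0.914).

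Of 28 genes of the XBP1 and secretory list 18 were higher in MM and 0 lower, with a median difference of 1.03. DNAJB9, a chaperone cofactor of the endoplasmic reticulum, rose by 2.03, SRPRB, the membrane anchor of the signal recognition particle receptor, by 1.56, FKBP11, a secretory pathway prolyl isomerase, by 1.54 and SSR3, a translocon subunit, by 1.46. Of 7 sensors and effectors of the unfolded protein response, not all of them upstream of XBP1, 2 were higher. ERN1, the sensor that splices XBP1, was up by 3.32 (SE 0.47, limma adjusted p = 3.3e-05) and ATF6, another sensor, by 1.24. The list median there was 0.10.

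Of 12 partners and regulators of IRF4 2 were higher and 1 lower, with a median of -0.21. KLF2, a factor of lymphocyte quiescence, rose by 2.12 and the NF-κB subunit RELA by 0.59, whereas REL, another subunit, fell by 2.15. Of 2 secretory genes taken as BHLHA15 targets 1 passed, RAB3D, a vesicle GTPase, which rose by 1.19. Of the T-cell, myeloid and stromal or epithelial markers 1 of 17 passed, KRT8 at 0.80 (limma adjusted p = 0.0434), and the mean level of these lists stayed between 4.26 and 6.06 in every line. Such means hide single genes that varied widely between lines. EPCAM gave 6.55 ± 3.24 in MM (SD, n = 12), and in DLBCL CD247 gave 7.02 ± 1.72 and COL1A1 4.41 ± 2.13 (SD, n = 14).

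The relation of the factors to drug response was examined within each disease as the change in log2 expression per 100 units of AUC0. None of the 9 probe-sets passed in any of the 6 fits (limma, lowest adjusted p = 0.883), where 0 of all probe-sets were called except 1 (0.00183%) for H in MM. At an unadjusted p under 0.05 there were 2 of 9 for C in MM, against 3.44% of all probe-sets, 1 for H in DLBCL (5.5% of all) and 1 for O in DLBCL (4.3% of all). There were 0 for C in DLBCL (4.95% of all), H in MM (4.17%) and O in MM (4.66%). Of the differences between the diseases in slope 0 passed, and the counts at an unadjusted p under 0.05 were 0 for C (4.56% of all), 1 for H (5.12%) and 0 for O (4.02%).

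**Figure D4:**
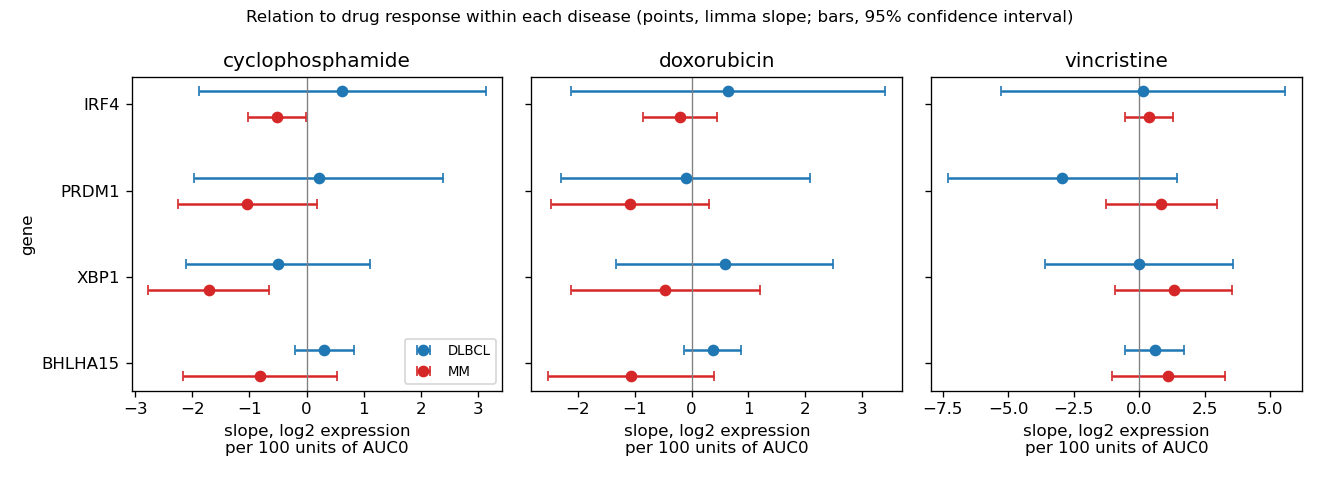
Change in log2 expression for each 100 units of AUC0 (horizontal axes, with separate ranges) for the leading probe-set of each gene (vertical axis), for C, H and O, in DLBCL (blue) and MM lines (red). Points are limma estimates and bars 95% confidence intervals; that of XBP1 for C in MM, from -2.77 to -0.66, is the one farthest from 0.

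XBP1 for C in MM was the largest of these relative to its error. The 4 lines classed as resistant read 9.58 (AMO-1), 10.85 (KMS-12-BM), 11.10 (U-266) and 11.47 (RPMI-8226). The 4 sensitive lines read 12.32 (OPM-2), 12.45 (MM1S), 12.74 (KMM-1) and 12.85 (MOLP-8), and the classes did not overlap. By the leading probe-sets, the resistant and sensitive classes overlapped for every other gene, drug and disease except PRDM1 for C in MM. The share of all probe-sets whose classes do not overlap was not computed. XBP1 gave -1.71 per 100 units (SE 0.48, 95% CI: -2.77, -0.66), with an unadjusted p of 0.00419 and a limma adjusted p of 1. Across the 12 lines Pearson's r was -0.724 (two-sided permutation p = 0.00761) and Spearman's rho -0.650 (permutation p = 0.0258), and r was -0.569 without AMO-1 and MM1S. This was 1 of 24 such relations computed, and it did not pass over all probe-sets. Without AMO-1, the most resistant line and the lowest for XBP1, the slope was -1.26.

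In DLBCL the XBP1 slope for C was -0.51 (95% CI: -2.12, 1.10), and the difference between the diseases was -1.20 (95% CI: -3.29, 0.88, limma adjusted p = 1.0). The DLBCL interval includes the MM estimate, and the slopes of the diseases could not be told apart at this number of lines.

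**Figure D5:**
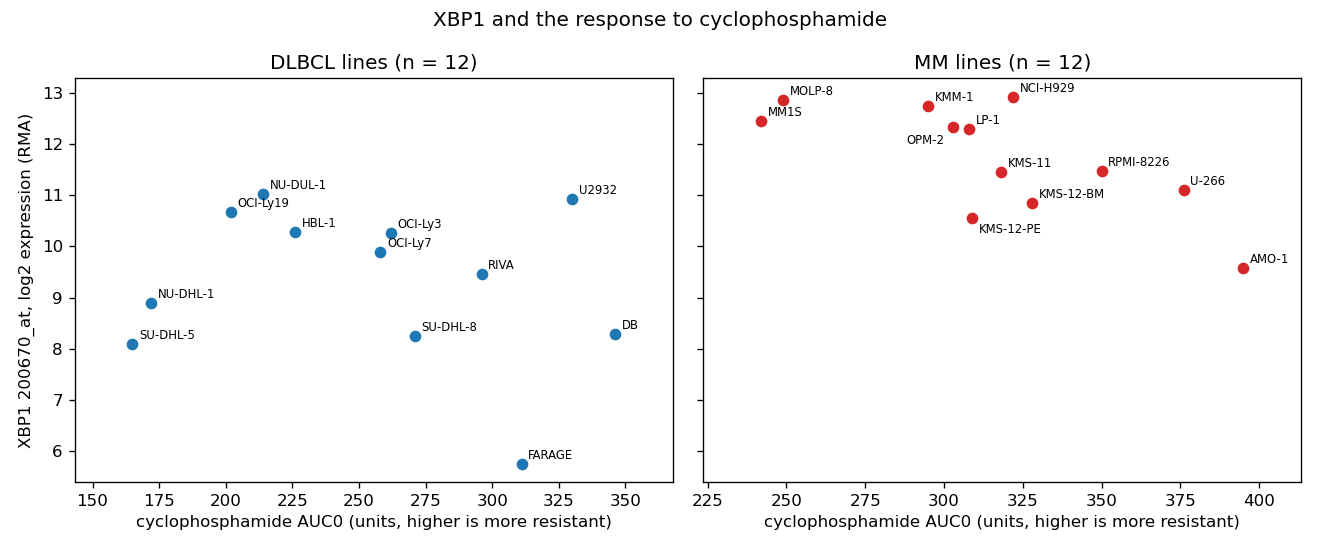
XBP1, leading probe-set (log2 expression, vertical axis) against cyclophosphamide AUC0 (horizontal axes, units, higher is more resistant) in 12 DLBCL (left) and 12 MM lines (right), 1 point per line. In MM, AMO-1 is at the highest AUC0, 395, and the lowest XBP1, 9.58.

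The other factors gave slopes for C in MM of -0.52 for IRF4 (95% CI: -1.02, -0.02, unadjusted p = 0.0437 and limma adjusted p = 1), -1.03 for PRDM1 (95% CI: -2.25, 0.19) and -0.82 for BHLHA15 (95% CI: -2.16, 0.53). Single lines moved the last of these, to -0.16 without U-266 and to -1.38 without AMO-1. The PRDM1 values of resistant MM lines, from 9.16 in RPMI-8226 to 10.50 in AMO-1, also lay below those of the sensitive lines, from 10.60 in KMM-1 to 11.85 in MOLP-8. This is not independent of XBP1, with which PRDM1 gave r of 0.68 in MM. In DLBCL the slopes for C were 0.62 for IRF4 (95% CI: -1.89, 3.13), 0.21 for PRDM1 (95% CI: -1.97, 2.40) and 0.31 for BHLHA15 (95% CI: -0.21, 0.83).

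For H, the MM slopes were -0.21 for IRF4 (95% CI: -0.86, 0.45), -1.08 for PRDM1 (95% CI: -2.47, 0.30), -0.46 for XBP1 (95% CI: -2.13, 1.21) and -1.07 for BHLHA15 (95% CI: -2.52, 0.39). Leaving out 1 line moved XBP1 to -1.05 without AMO-1 and -0.0969 without MOLP-8, IRF4 to -0.0675 without MOLP-8 and BHLHA15 to -1.65 without MM1S. The DLBCL slopes were 0.65 (95% CI: -2.12, 3.41), -0.10 (95% CI: -2.30, 2.10), 0.59 (95% CI: -1.33, 2.50) and 0.37 (95% CI: -0.13, 0.88) in the same order. BHLHA15 gave the only difference between the diseases with an unadjusted p under 0.05, -1.44 (95% CI: -2.78, -0.10, unadjusted p = 0.0366 and limma adjusted p = 0.963).

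For O, the MM slopes were 0.37 for IRF4 (95% CI: -0.55, 1.28), 0.85 for PRDM1 (95% CI: -1.27, 2.97), 1.32 for XBP1 (95% CI: -0.92, 3.56) and 1.12 for BHLHA15 (95% CI: -1.04, 3.28). BHLHA15 gave 0.20 without U-266 and 2.60 without LP-1, PRDM1 0.48 without NCI-H929 and 1.38 without MM1S, and IRF4 0.22 without U-266 and 0.60 without OPM-2. The DLBCL slopes were 0.16 (95% CI: -5.26, 5.58), -2.93 (95% CI: -7.29, 1.43), 0.00 (95% CI: -3.59, 3.59) and 0.59 (95% CI: -0.53, 1.71). AUC0 for O ran from 54 to 131 units in DLBCL. The remaining unadjusted p under 0.05 belonged to the third PRDM1 probe-set for O in DLBCL, at -1.07 (95% CI: -2.02, -0.12), and to the third, dim IRF4 probe-set for H in DLBCL, at 0.21 (95% CI: 0.03, 0.39).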

How the data were processed

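Expression was measured on 1 HG-U133 Plus 2.0 array per untreated line. The file deposited by the authors holds log2 intensities, computed by RMA with the package affy (R 3.0.1 per the labels); the methods separate the diseases only after this step. AUC0 values and classes come from the sample labels. The class used for doxorubicin is tagged cyclophosphamide there and was assigned by its position after the doxorubicin AUC0. The 62 control probe-sets were left out, and symbols came from the platform annotation (41097 probe-sets with 1 symbol, 1801 with several, 11777 with none) updated through RefSeq.

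limma 3.58.1 (R 4.3.3) gave differences and slopes over all 54613 probe-sets, with Benjamini-Hochberg adjustment over all of them and a threshold of 0.05. Correlations with AUC0 used permutation tests of 100000 resamples (Python 3.11.15, scipy 1.17.1). The methods keep a gene's most variable probe-set in their merged, rescaled data; here it was that of largest SD in DLBCL. Named were all member probe-sets, the 4 passing genes of the largest difference per list, 7 marker genes and the 5 most alike genes per member with a highest value of at least 7. The members and lists were chosen with earlier results of these data known. On simulated data over all probe-sets, 92% of planted 2-unit differences were recovered for MM against DLBCL. Of doxorubicin slopes of 2 planted, 92% were recovered in DLBCL, 66% in MM and 68% for the difference. Of slopes of 1, 64%, 46% and 40% were recovered, and of slopes of -2, 72%, 74% and 68%. The planted probe-sets were drawn at random from all, so the rates need not hold for the members. In each simulation 50 effects of each of the sizes 1, 2, 4 and -2 were planted together. Many true effects make the adjusted threshold easier to pass. At most 1 probe-set was called in an AUC0 fit, so the slope rates are too high for a gene changed alone. In DLBCL the SE of the H slope was 1.29 for IRF4, 1.02 for PRDM1, 0.89 for XBP1 and 0.24 for BHLHA15. Recovery at the spread of these probe-sets was not tested. Arrays have no read depth, and the number of lines limits the precision; p-values measure the spread between lines. Alternatives were 1 probe-set per gene, a filter at 6, array centring, a trended robust prior, ranks, classes, and lines left out.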

Additional observations from a re-analysis of the deposited data

How the results depend on the processing

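The 8 calls of MM against DLBCL kept their direction and their side of the threshold in all 282 alternative values of the 9 probe-sets. The number of calls was 4 where each gene had 1 probe-set, because only 4 were then tested. Over all probe-sets that setting gave 3483 calls against 6285. The 12 cases of a DLBCL line in the MM range became 6 with the second lowest MM line as the bound and 13 with arrays centred. With each MM line left out in turn, a check chosen after seeing the data, they ranged from 8 without AMO-1 to 12. No member was called in any AUC0 fit under any alternative, and 20 of 476 slopes within a disease and 4 of 380 differences of slopes changed sign. The XBP1 slope for O in DLBCL became -0.0115 with arrays centred, and the IRF4 comparison for H in DLBCL -0.13 between classes. With lines left out in turn, DLBCL slopes for C ran from -0.60 to 2.35 for IRF4, from -0.36 to 0.92 for PRDM1 and from -1.04 to 0.0556 for XBP1. For H they ran from -0.42 to 0.53 for PRDM1 and from -0.17 to 1.26 for XBP1, and for O from -1.76 to 3.88 for IRF4 and from -1.70 to 0.88 for XBP1. The difference MM minus DLBCL ran from -2.86 to 0.0799 for IRF4 and C, from -3.51 to 2.13 for IRF4 and O, and from -0.39 to 2.01 for BHLHA15 and O. Over all probe-sets, the calls for the difference in H were 3 without MC-116 and AMO-1 and up to 4 without MM1S, against 0, the call for H in MM went from 1 to 0 with ranks and without MM1S or MOLP-8, classes gave 2 for H and 2 for O in DLBCL against 0, and the difference in O gave 1 without U-266. The cause of these changes was not tested. No paired analysis was possible because the labels carry no replicate numbers and the lines of the 2 diseases are different. Dim probe-sets, such as the third of IRF4, and the lack of repeat arrays limit what a single line's value shows.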
